A study of Mus musculus with 6 samples.

Results

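The subunits of the respiratory chain and of ATP synthase were described in testes of mice with and without a working copy of Prss37, a trypsin-like serine protease gene expressed in testis. Members were set by a rule that uses gene names and no measured values, but it was chosen with earlier results of these data known. The rule took every array probe, controls left out, whose gene name in the scanner files was that of a subunit. Subunits counted were those of complex I, III or IV, of cytochrome c, or of ATP synthase (complex V). This gave 120 probes for 82 genes, out of 41174 probes for 27343 genes on the array. A further 2 complex I subunit genes with names of the same form were not analysed here. The name search also caught 3 entries that are not subunits: Atp5c1-ps is a pseudogene, and Atp5s and Atp5sl are now called Dmac2l and Dmac2. They were kept and are counted apart as "named for ATP synthase only".

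Whole testes had been taken from 3 mice labelled as Prss37 knockout (Prss37-/-) and 3 wild-type mice, all males on C57BL/6 and 6 to 8 weeks old. Total RNA of each mouse was hybridised to its own single-colour array. One label field of the knockout mice gives another protease gene, Prss55, in place of the Prss37 of their titles, and the titles set the groups. Neither the deleted stretch of Prss37 nor the way the allele was made is given in the labels. A whole testis holds many cell types, so fewer cells of a type and less RNA per cell cannot be told apart in these levels.

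As background, complex I (Nduf genes) takes electrons from NADH, complex III (Uqcr genes and Cyc1) passes them from coenzyme Q to cytochrome c, and complex IV (Cox genes) passes them to oxygen. The energy stored as a proton gradient drives ATP synthase (Atp5 genes), a rotary enzyme with a ring in the inner mitochondrial membrane and a catalytic head outside it. Male germ cells replace some of these proteins with testis forms encoded by separate genes, such as Cyct for cytochrome c and Cox6b2, Cox7b2 and Cox8c for complex IV, and the sperm midpiece is wrapped in a sheath of mitochondria.

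On each array 69.2% to 71.4% of the spots other than controls were well above background and 0 were saturated. The Prss37 probe was 1.63-fold lower in knockout testes (log2 difference -0.71, SE 0.07, limma adjusted p = 0.024), well above background on all 3 knockout arrays, and Prss55 differed by -0.16 (SE 0.09, adjusted p = 0.36). The Prss37 difference stayed between -0.76 and -0.66 over 19 alternatives, but its call was lost in 7 of them, among these without knockout replicate 1, 2 or 3 (adjusted p = 0.072, 0.12 and 0.13) and without wild-type replicate 1 (0.097). Because the deleted stretch is not given, it is not known whether the Prss37 probe checks the genotype. Markers of spermatocytes, round and elongating spermatids, Sertoli and Leydig cells were well above background on all 6 arrays. Amh, on 2 of 3 of each genotype, was the exception. Of 4 epididymis markers, Lcn5, Crisp1 and Adam7 were not well above background on any array. The remaining epididymis marker, Defb20, was well above background on all 6 arrays, with low mean levels of -4.45 in knockout and -4.55 in wild type. Each array stood for a mouse, as the design text gives n as mice, so the p-values measure the spread between these mice.

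Of the 82 member genes, 80 were well above background on all 6 arrays and were tested. The other 2 were isoforms known from other tissues: Cox4i2, the lung form of subunit 4, was above background on 1 of 3 wild-type arrays and 0 of 3 knockout arrays, and Cox8b, the heart and skeletal muscle form of subunit 8, on 2 of 3 and 0 of 3. Both were too dim to test. In what follows a level is the log2 signal relative to the 75th percentile of the same array, and a difference is the knockout mean minus the wild-type mean of such levels. Knockout and wild type were compared with limma over all 18976 tested genes, and a gene was called at a Benjamini-Hochberg adjusted p under 0.05.

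No respiratory subunit passed the test in either direction: 0 of 80 members were called, where 2.46% of all tested genes were called (1.21% higher and 1.25% lower in knockout). At an unadjusted p under 0.05 there were 4 members higher (Atp5g2, Cyc1, Cox6c and Ndufs1) and 1 lower (Cox7a2l), 6.25% of the members against 23.9% of all tested genes. At an adjusted p under 0.1 there was 1 member, Atp5g2, or 1.25% of the members, where 9.83% of all tested genes passed. The fitted differences ran from -0.15 for Cox7a1 to 0.22 for Cox6c. The median size of a difference, its sign left aside, was 0.039 for members and 0.091 for all tested genes. The median spread between mice of a group (SD) was 0.043 for members and 0.079 for all tested genes. Among the 3795 brightest tested genes, which held 65 of the 80 members, these medians were 0.065 and 0.054. In that bright group 20.1% of genes had an unadjusted limma p under 0.05 and 1.32% were called. Members and all tested genes thus differed in brightness as well, and its part in these contrasts was not tested. For 77 of the 80 members the 95% interval of the difference lay within 1.25-fold in either direction (0.32 on the log2 scale). The 3 wider ones were those of Cox6c (0.04 to 0.40), Cox7a1 (-0.35 to 0.05) and Cox7c (-0.57 to 0.49), all of complex IV.

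**Figure D1:**
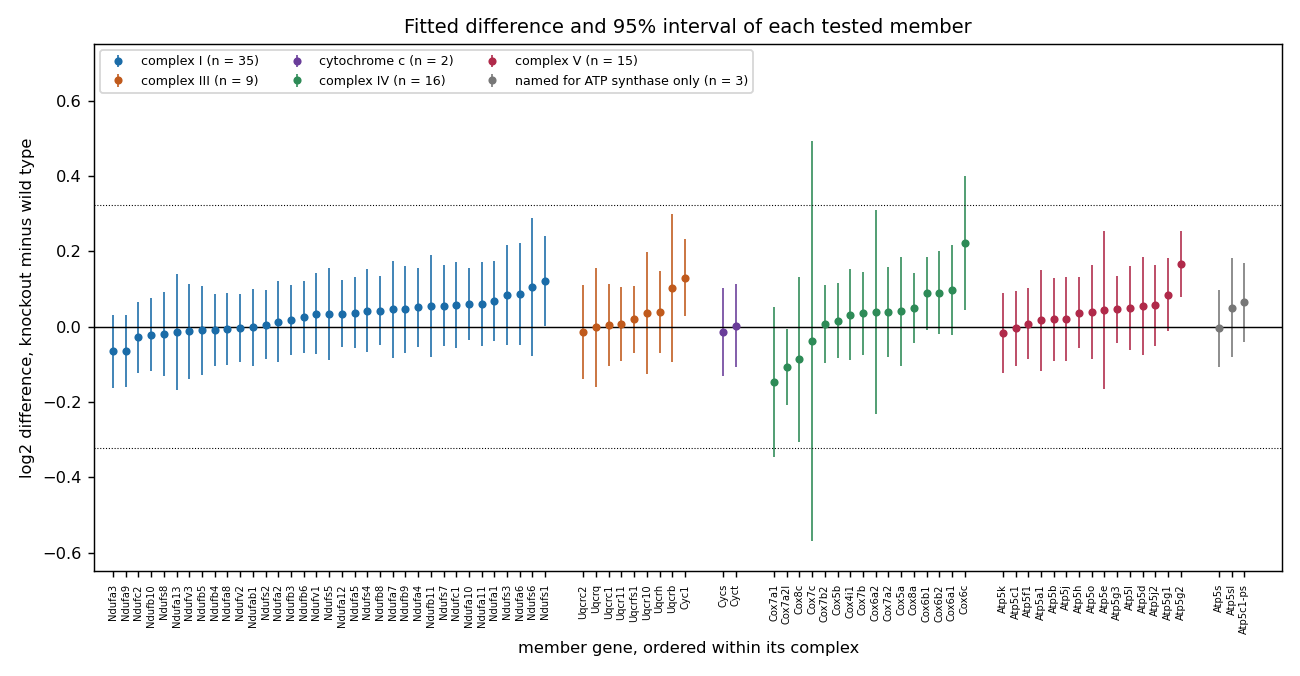
Fitted log2 difference, knockout minus wild type (vertical axis), of the 80 tested members (horizontal axis, ordered within each complex); points are limma estimates from 3 mice per genotype, bars are 95% intervals, and dotted lines mark 1.25-fold (0.32 on the log2 scale). The points lie between -0.15 and 0.22, and 77 of the 80 intervals stay between the dotted lines.

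Levels of the knockout and wild-type mice did not overlap for 17 members. That is 21.2% of the members, against 31.6% of all tested genes. Of these 17, 14 were higher in knockout, 17.5% of the members, where 15.5% of all tested genes were not overlapping and higher, and 3 were lower (Cox7a2l, Ndufa3 and Ndufa9), 3.75% against 16.0%. Of the 14 higher ones 12 also had a difference above 0 under quantile normalization and in the deposited table, and the 3 lower ones were below 0 in both. Both rescale the same arrays from which these genes were picked, so this is a description and not a separate check.

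Taken by sign alone, 58 of 80 members (72.5%) had a difference above 0, where 49.3% of all tested genes did, but under quantile normalization and in the deposited log2 table only 39 of 80 (48.8%) did. The median difference of the members was 0.035, and -0.0016 and -0.0015 in those other scalings, where the medians of all tested genes were -0.0024, -0.0079 and -0.0062. Across 5 ways of scaling the arrays, 54 members kept their sign and 26 did not. Most members are bright: 65 of the 80 were among the 3795 brightest tested genes (of 18976). In that bright group 59.9% of all genes had a difference above 0 with a median of 0.022, and 49.2% with a median of -0.0017 under quantile normalization, so the bright genes as a whole changed sign with the scaling as the members did. Brightness and membership were not separated by any test.

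The members' offset was not even over the mice. As the median deviation over members from each gene's mean of the 6 arrays, the knockout mice stood at 0.0080, 0.027 and 0.0061 (replicates 1 to 3) and the wild-type mice at 0.0020, -0.040 and -0.013. The lowest, wild-type replicate 2, and the highest, knockout replicate 2, lay on the same slide. Without wild-type replicate 2 the median difference of members was 0.021 and 52 of them were above 0, and without knockout replicate 2 it was 0.018 and 56 were above 0. Within slide 1 (replicates 1 and 2) it was 0.035, and within slide 2 (replicate 3) 0.0090.

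**Figure D2:**
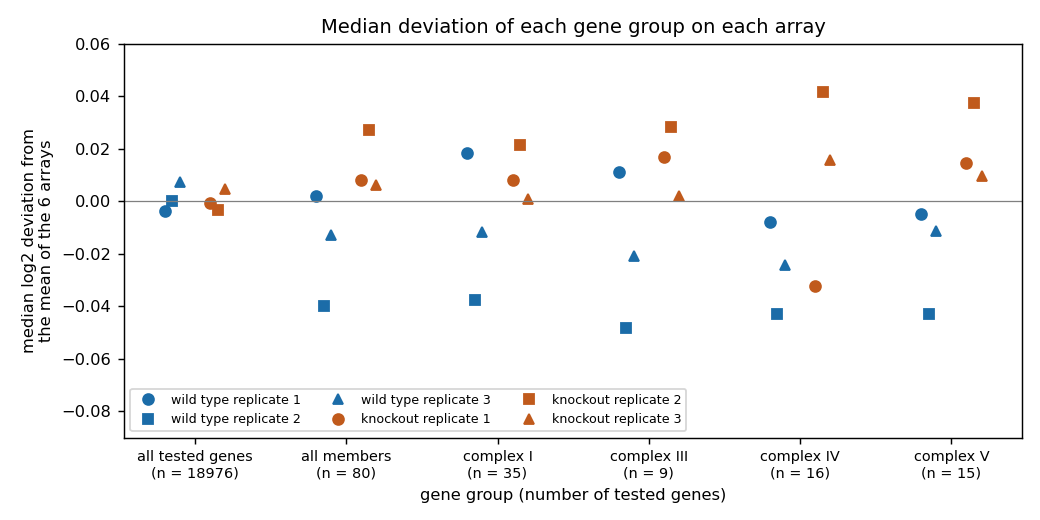
Median log2 deviation from the mean of the 6 arrays (vertical axis) for all tested genes, all tested members and the members of complexes I, III, IV and V (horizontal axis, with the number of genes); each point is 1 mouse, coloured by genotype and shaped by replicate number. Wild-type replicate 2 is the lowest point of each member group, at -0.040 over all members, while all tested genes stay near 0.

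**Figure D3:**
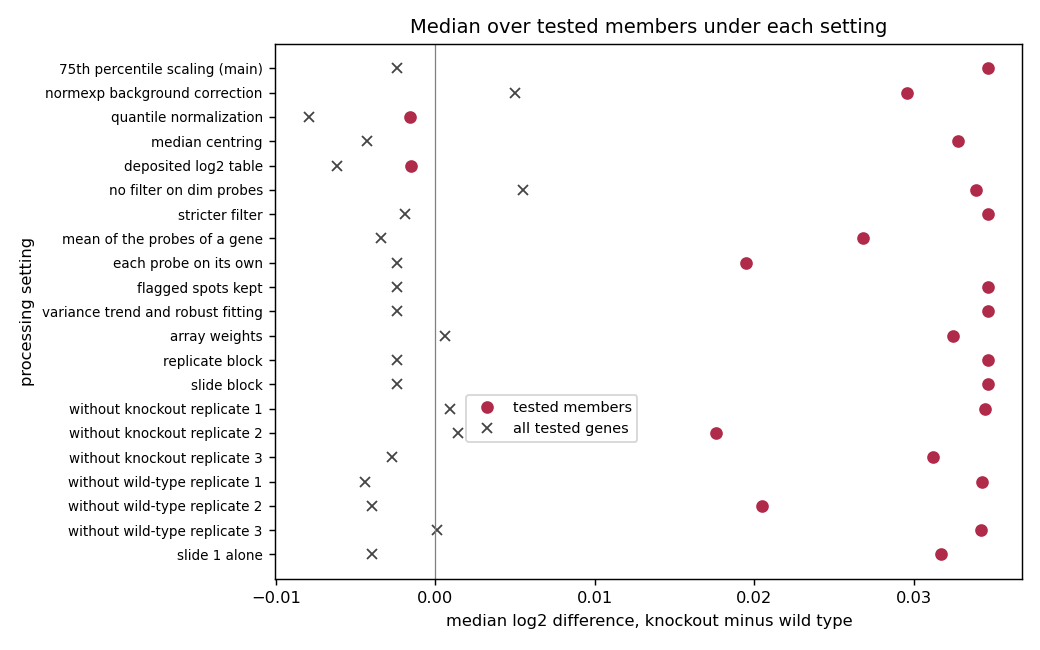
Median log2 difference, knockout minus wild type (horizontal axis), over the tested members (filled points) and over all tested genes (crosses) under each processing setting (vertical axis). The members' median was 0.035 with 75th percentile scaling, was -0.0016 with quantile normalization and -0.0015 in the deposited table, and lay at 0.018 and 0.021 without knockout or wild-type replicate 2.

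In complex I, 0 of 35 members were called and 23 had a difference above 0 (18 under quantile normalization), with a median of 0.034 and a range from -0.066 to 0.12. The 7 core subunits of the arm that reads NADH and passes electrons to coenzyme Q had a median of 0.034. The 28 other Nduf members, counted here as accessory subunits, had 0.034. Complexes were set by gene name alone, for Ndufa4 as for the others, and a name need not give the complex that holds the protein. The core subunit Ndufs1, which carries iron-sulfur clusters, had levels of 4.54, 4.54 and 4.50 in knockout and 4.44, 4.32 and 4.45 in wild-type mice. All 3 knockout mice lay above all wild-type mice, and wild-type replicate 2 was the lowest. Its difference was 0.12 (SE 0.05, adjusted p = 0.21), and the adjusted p ran from 0.13 to 0.43 over 19 alternatives. Ndufv1, the core subunit that binds NADH through its flavin, differed by 0.034 (SE 0.04, adjusted p = 0.69).

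Among the accessory subunits of complex I the highest differences were those of Ndufs6, which binds zinc, at 0.10 (SE 0.07, adjusted p = 0.45), and Ndufa6, a member of the LYR family, at 0.087 (SE 0.06, adjusted p = 0.40). The Ndufs6 levels were 4.34, 4.35 and 4.36 in knockout and 4.38, 4.10 and 4.27 in wild type, so the groups overlapped and wild-type replicate 2 was the lowest. The other 2 tested Ndufs6 probes differed by 0.030 and -0.016, and on neither was wild-type replicate 2 set apart (4.31, 4.26 and 4.28, and 3.64, 3.61 and 3.59 in wild type). Under quantile normalization the Ndufs6 difference was 0.0077. The lowest were Ndufa3, of the membrane arm, at -0.066 (SE 0.04, adjusted p = 0.37), Ndufa9, at the joint of both arms, at -0.064 (SE 0.04, adjusted p = 0.38), and Ndufc2 at -0.028 (SE 0.04, adjusted p = 0.71). Ndufa9 had levels of 4.11, 4.09 and 4.07 in knockout and 4.13, 4.14 and 4.19 in wild type, which did not overlap.

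In complex III, 0 of 9 members were called, and 7 had a difference above 0, or 2 under quantile normalization, with a median of 0.020. Cyc1, which encodes cytochrome c1, the haem subunit that hands electrons to cytochrome c, had levels of 3.32, 3.26 and 3.31 in knockout and 3.15, 3.14 and 3.21 in wild type. The genotypes did not overlap, and the difference of 0.13 (SE 0.04, adjusted p = 0.14) was 0.14 on slide 1 and 0.10 on slide 2. Over 19 alternatives the Cyc1 difference ran from 0.11 to 0.15 and its adjusted p from 0.077 to 0.35. The small subunit gene Uqcrb differed by 0.10 (SE 0.08, adjusted p = 0.49) with overlapping groups, its wild-type replicate 2 at 2.52 and the other 5 mice from 2.76 to 2.84. Uqcrfs1, the Rieske iron-sulfur protein, differed by 0.020 (SE 0.04, adjusted p = 0.78), the hinge protein gene Uqcrh by 0.039, Uqcrq by -0.0019 and the core protein gene Uqcrc2 by -0.014, and for each of these the sign changed between scalings. Another tested Uqcrh probe differed by 0.11 (SE 0.06, adjusted p = 0.31 with each probe tested on its own) with no overlap. A dimmer Uqcrq probe, with mean levels of -3.97 in knockout and -3.81 in wild type, differed by -0.16 (SE 0.07, adjusted p = 0.25) with overlap.

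In complex IV, 0 of 16 tested members were called, and 12 were above 0, or 8 under quantile normalization (median 0.037). It held both the highest and the lowest member difference, those of Cox6c and Cox7a1. Cox6c, a nuclear subunit of the membrane part, had levels of 4.57, 4.59 and 4.60 in knockout and 4.47, 4.21 and 4.42 in wild type. The knockout mice lay within 0.013 (SD) of each other and above all wild-type mice, whose SD was 0.14. The Cox6c difference was 0.22 (SE 0.07, adjusted p = 0.14), a 1.17-fold higher level, and 0.14 to 0.27 over 19 alternatives with adjusted p from 0.083 to 0.32. Cox7a2l, which encodes a protein that joins complexes III and IV into supercomplexes, was the member of lowest p among those below 0, with levels of 2.50, 2.52 and 2.50 in knockout against 2.56, 2.64 and 2.65 in wild type. These did not overlap, and the difference was -0.11 (SE 0.04, adjusted p = 0.19). Over 19 alternatives it ran from -0.135 to -0.043, the latter with normexp background correction.

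Cox6a1, the widely expressed form of subunit 6a, differed by 0.097 (SE 0.05, adjusted p = 0.29), or 0.046 under quantile normalization. Cox4i1 differed by 0.031, Cox5a by 0.040 and Cox7a2 by 0.039, and under quantile normalization by -0.018, 0.010 and -0.028. Cox7c, picked out here for its wide interval, had a wild-type replicate 3 at 0.67 where the other 5 mice lay from -0.18 to 0.21.

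Isoforms of heart and skeletal muscle were also detected. Cox7a1 had levels of 0.29, 0.47 and 0.38 in knockout and 0.67, 0.47 and 0.43 in wild type, which overlapped, and a difference of -0.15 (SE 0.08, adjusted p = 0.34). Cox6a2 differed by 0.039 (SE 0.11, adjusted p = 0.87) with levels from -3.41 to -3.01 over the 6 mice. Skeletal muscle markers stood beside them: 4 of 6 were tested, 2 of the 4 were above 0, Ckm and Tnnt3 were not tested, and the summed level of the list ran from 0.37 to 0.42 in knockout and from 0.38 to 0.44 in wild type, in multiples of the 75th percentile signal. The part of muscle RNA in the Cox7a1 values was not tested.

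**Figure D4:**
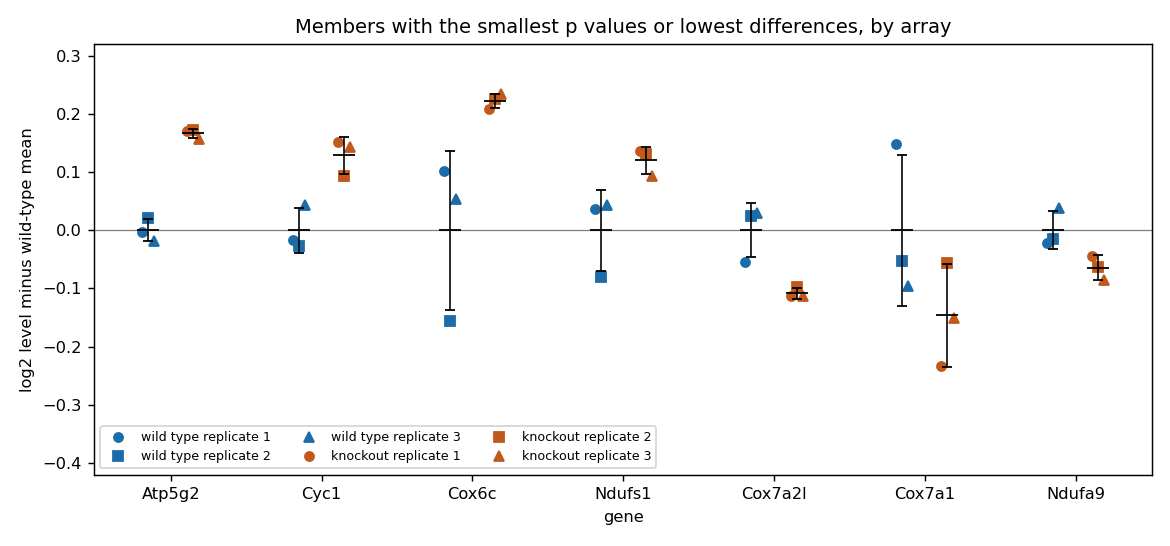
Log2 level minus the wild-type mean (vertical axis) of 7 members (horizontal axis). They are the 5 members with an unadjusted limma p under 0.05, Cox7a1 with the lowest difference, and Ndufa9. Ndufa9 is among the 3 lowest of complex I but has neither a p under 0.05 nor the lowest difference, and was picked for display. Each point is 1 mouse, and bars are the group mean and SD of 3 mice. Knockout and wild-type points do not overlap for 6 of the 7 genes and do overlap for Cox7a1, and the wild-type spread is wide for Cox6c, with replicate 2 lowest.

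For ATP synthase, 0 of 15 members were called, and 13 had a difference above 0, or 9 under quantile normalization, with a median of 0.038. Subunit c forms the rotor ring in the membrane and is encoded by the genes Atp5g1, Atp5g2 and Atp5g3, which differ in their import sequences and give the same mature protein. Atp5g2 was the member with the smallest p: its levels were 3.84, 3.84 and 3.83 in knockout and 3.67, 3.69 and 3.65 in wild type. No knockout mouse came near a wild-type mouse, and the spread within a genotype was 0.0080 and 0.019 (SD, n = 3). The difference of 0.17 (SE 0.04), a 1.12-fold higher level, had an adjusted p of 0.068 and was 0.16 on slide 1 and 0.18 on slide 2.

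The Atp5g2 probe lies on chromosome 15 from 102493444 to 102493503 (mm9) and starts at base 442 of its transcript. Another Atp5g2 probe on the same chromosome, from 102495586 to 102495645 and starting at base 225, had levels of 2.20, 2.11 and 2.16 in knockout and 2.0, 2.08 and 2.05 in wild type. These did not overlap either, and the difference was 0.12 (SE 0.05, adjusted p = 0.20 with each probe tested on its own). The Atp5g2 difference lay between 0.14 and 0.18 over 19 alternatives, and its adjusted p ran from 0.027 to 0.24. It passed with variance trend and robust fitting (adjusted p = 0.027) and with array weights (adjusted p = 0.048). Both settings called more of all tested genes: 691 higher and 579 lower, and 644 and 529, against 230 and 237 in the main fit.

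The companion genes had smaller differences. Atp5g1 had levels of 3.01, 3.04 and 3.06 in knockout and 2.91, 2.96 and 2.98 in wild type, a difference of 0.085 (SE 0.04, adjusted p = 0.26), and Atp5g3 differed by 0.045 (SE 0.04, adjusted p = 0.50). In both, as in Atp5g2, all knockout mice were above all wild-type mice, and all of these differences stayed above 0 in the 5 scalings. The probes that stood for these genes shared runs of at most 8 bases, as counted over the probes' letters.

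The other ATP synthase subunits gave a head of 5 members with a median of 0.019 and a membrane part and stalk of 10 members, the subunit c genes included, with a median of 0.042. Atp5a1 and Atp5b, the alpha and beta subunits of the catalytic head, differed by 0.016 (SE 0.06, adjusted p = 0.89) and 0.019 (SE 0.05, adjusted p = 0.84), and both were below 0 under quantile normalization. Atp5c1, the gamma subunit that turns inside the head, differed by -0.0049, Atp5k (subunit e) by -0.017, and Atp5j2 (subunit f) by 0.056 (SE 0.04, adjusted p = 0.49). Of the entries named for ATP synthase only, 2 of 3 were above 0, with a median of 0.050.

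The testis forms were set beside their somatic partners. Cyct and Cycs, the testis and somatic cytochrome c genes, were measured by probes sharing runs of at most 5 bases. Cyct had levels of 4.06, 4.01 and 4.01 in knockout and 4.07, 4.04 and 3.97 in wild type, and Cycs had 2.58, 2.54 and 2.60 against 2.54, 2.56 and 2.66. The groups overlapped in both, with differences of 0.0020 (SE 0.05, adjusted p = 0.98) and -0.014 (SE 0.05, adjusted p = 0.89), whose signs changed between scalings. Their 95% intervals were -0.11 to 0.11 and -0.13 to 0.10.

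Both forms of complex IV subunit 6b had non-overlapping groups. Cox6b2, the testis form, had levels of 5.74, 5.64 and 5.73 in knockout and 5.63, 5.58 and 5.63 in wild type (difference 0.090, SE 0.04, adjusted p = 0.28). Cox6b1, the somatic form, had levels of 0.00080, 0.065 and 0.0014 against -0.061, -0.088 and -0.049 (difference 0.088, SE 0.04, adjusted p = 0.25). Cox7b2 had levels from 3.59 to 3.66 in knockout and from 3.58 to 3.66 in wild type, and its somatic partner Cox7b, on chromosome X, from 1.41 to 1.51 and from 1.42 to 1.46. Their differences were 0.0071 (SE 0.04, adjusted p = 0.94) and 0.035 (SE 0.04, adjusted p = 0.68). Cox8c, the testis form of subunit 8, had levels of 5.59, 5.85 and 5.88 in knockout and 5.89, 5.77 and 5.91 in wild type, and knockout replicate 1 stood apart at the low end. Its difference was -0.087 (SE 0.09, adjusted p = 0.61), and that of Cox8a, the somatic form, 0.049 (SE 0.04, adjusted p = 0.49).

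In the ratio of testis to somatic form on an array a shift common to all its probes cancels. As a log2 ratio, knockout minus wild type, it was 0.016 for Cyct over Cycs (SD 0.037 in knockout and 0.12 in wild type, n = 3 each), 0.0022 for Cox6b2 over Cox6b1 (SD 0.092 and 0.010), -0.028 for Cox7b2 over Cox7b (SD 0.086 and 0.021) and -0.14 for Cox8c over Cox8a (SD 0.18 and 0.10). The groups overlapped in all 4 pairs, and an exact permutation test of 3 against 3 mice could not give a two-sided p below 0.10. For the Cox8 pair knockout replicate 1 was at -0.34 from the wild-type mean where the other 2 knockout mice were at -0.065 and -0.0065, and the ratio was -0.036 without that mouse. Scalings that act on bright and dim probes differently moved the ratios: Cyct over Cycs was -0.066 under normexp, Cox6b2 over Cox6b1 was -0.048 under quantile normalization and -0.050 in the deposited table, and Cox8c over Cox8a was -0.21 under normexp. Markers of elongating spermatids had a summed level from 1039 to 1173 in knockout and from 1050 to 1101 in wild type, with 5 of 6 above 0 and 0 of 6 called. Which germ cell stages gave the testis forms measured here was not tested.

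**Figure D5:**
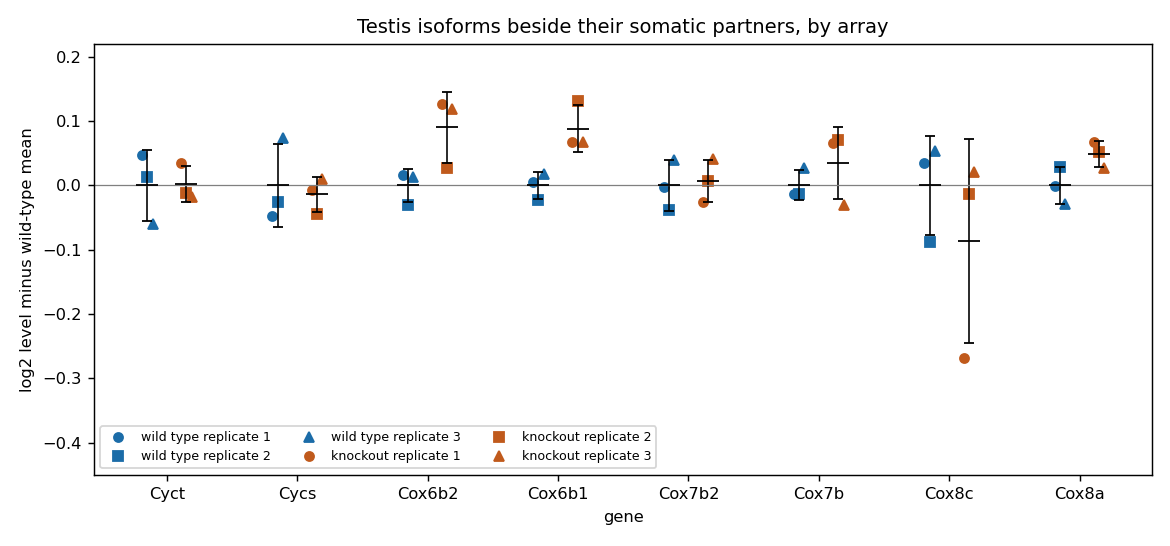
Log2 level minus the wild-type mean (vertical axis) of the testis isoform genes and their somatic partners in adjacent pairs (horizontal axis); each point is 1 mouse, and bars are the group mean and SD of 3 mice. Knockout and wild-type points overlap in 6 of the 8 genes, Cox6b2 and Cox6b1 lie 0.090 and 0.088 higher in knockout, and knockout replicate 1 is low for Cox8c.

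The stretches upstream of a testis and a somatic form are shown because each pair encodes forms of the same subunit. For Cycs and Cyct these are the 200 bases before the transcription start and for the Cox6b and Cox7b pairs the 120 bases before it, from RefSeq on GRCm38.p6, written 5′ to 3′ on the gene's strand. They lie at chr6:50566570-50566769 (minus strand), chr2:76360454-76360653 (minus strand), chr7:30626115-30626234 (minus strand), chr7:4753095-4753214 (minus strand), chrX:106015580-106015699 (plus strand) and chr5:71548206-71548325 (minus strand). Capitals mark a whole match to a searched motif, on either strand, inside the stretch shown.
Cycs: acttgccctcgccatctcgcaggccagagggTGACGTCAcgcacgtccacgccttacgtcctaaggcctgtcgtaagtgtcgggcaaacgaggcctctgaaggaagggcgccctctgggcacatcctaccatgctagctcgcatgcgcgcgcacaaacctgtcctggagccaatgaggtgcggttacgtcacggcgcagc
Cyct: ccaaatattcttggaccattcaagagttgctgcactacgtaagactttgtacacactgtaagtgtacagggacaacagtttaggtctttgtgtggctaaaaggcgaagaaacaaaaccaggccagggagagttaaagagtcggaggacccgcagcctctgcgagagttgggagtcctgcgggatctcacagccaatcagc
Cox6b1: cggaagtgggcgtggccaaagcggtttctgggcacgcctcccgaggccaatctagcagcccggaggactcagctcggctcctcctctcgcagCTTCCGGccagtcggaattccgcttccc
Cox6b2: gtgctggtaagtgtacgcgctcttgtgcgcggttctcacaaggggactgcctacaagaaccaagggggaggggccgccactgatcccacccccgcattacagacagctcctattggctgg
Cox7b: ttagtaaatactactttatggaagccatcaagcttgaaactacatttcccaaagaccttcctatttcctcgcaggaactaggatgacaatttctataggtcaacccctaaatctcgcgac
Cox7b2: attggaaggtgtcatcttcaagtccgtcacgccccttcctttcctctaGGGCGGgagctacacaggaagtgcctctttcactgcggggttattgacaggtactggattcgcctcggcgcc
The stretches held a CRE match (TGACGTCA) in Cycs, an ETS match (CCGGAAG, here as its complement) in Cox6b1 and an Sp1 match (GGGCGG) in Cox7b2, and no match to the 5 motifs searched in Cyct, Cox6b2 and Cox7b. Outside the stretches shown, the searched promoters also held an Sp1 match at 193 bases before the start in Cox6b2 and after the start in Cycs, and a TATAAA match, as its complement, in Cox7b2. No promoter of Cox8c was used.

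Promoters from 250 bases before to 50 bases after the start were found for 66 of the tested members (72 promoters) in the RefSeq table, which holds 32851. The NRF1 motif (the capitals in the lines below), of a factor that drives many genes of the respiratory chain, was found on either strand in 5 of the 72 (6.94%) and in 0.971% of all promoters. The ETS motif CCGGAAG was in 18.1% of member promoters and 8.86% of all, the Sp1 motif GGGCGG in 40.3% and 35.7%, the CRE motif TGACGTCA in 5.56% and 1.79%, and TATAAA in 8.33% and 13.6%. The stretch around each NRF1 match, with the motif in capitals, is shown to compare the members that carry it, at chr15:102671070-102671099 (minus strand), chr5:108434430-108434459 (minus strand), chr5:115349101-115349130 (minus strand), chr17:56717692-56717721 (plus strand) and chr9:108936668-108936697 (plus strand).
Atp5g2: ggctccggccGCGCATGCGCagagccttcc
Atp5k: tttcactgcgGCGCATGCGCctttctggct
Cox6a1: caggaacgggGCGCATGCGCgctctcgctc
Ndufa11: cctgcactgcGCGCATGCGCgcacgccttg
Uqcrc1: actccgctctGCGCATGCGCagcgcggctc
The match starts 42 bases before the transcription start in Atp5g2, 50 in Atp5k, 162 in Cox6a1 and 60 in Ndufa11, and in Uqcrc1 at base 31 after it. These members did not share a difference: Atp5g2 had 0.17, Cox6a1 0.097, Ndufa11 0.060, Uqcrc1 0.0045 and Atp5k -0.017. The Nrf1 gene itself differed by -0.13 (SE 0.06, adjusted p = 0.28).

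Members on chromosome X, which is silenced in spermatocytes, were Ndufa1, Ndufb11 and Cox7b, chosen by position. Their differences were 0.068, 0.054 and 0.035, a median of 0.054, and 0 of 3 were called.

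Genes that serve the same pathway without being members were counted in 11 lists: complex II, subunits encoded by mitochondrial DNA, assembly factors of complexes I, III, IV and ATP synthase, cristae and supercomplex factors, coenzyme Q synthesis, electron entry to coenzyme Q, carriers and porins, and regulators. Of 113 listed genes 100 were on the array and 97 were tested, and 2 were called higher and 0 lower (2.06%, against 2.46% of all tested genes). Etfb, the beta subunit of the flavoprotein that brings electrons from fatty acid oxidation to coenzyme Q, had levels of 3.98, 3.95 and 3.96 in knockout and 3.55, 3.71 and 3.55 in wild type. It rose by 0.36 (SE 0.05, adjusted p = 0.044), a 1.28-fold change with no overlap. Coq8b, a kinase-like protein of coenzyme Q synthesis, had -0.57, -0.57 and -0.59 against -0.83, -0.84 and -0.97 and rose by 0.30 (SE 0.05, adjusted p = 0.046), 1.23-fold.

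Each of these calls was lost in 12 of 19 alternatives. Without knockout replicate 1, 2 or 3 the adjusted p of Etfb was 0.13, 0.15 and 0.15, and without wild-type replicate 1 or 3 it was 0.13 and 0.062. For Coq8b it was 0.14, 0.16 and 0.16 without knockout replicate 1, 2 or 3, and 0.12 and 0.0504 without wild-type replicate 1 or 2.

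In the other lists 0 genes were called by limma, and at an unadjusted p under 0.05 all 11 lists together had 12 higher and 7 lower, 19.6% of the 97 tested genes against 23.9% of all tested genes. Complex I assembly factors had 0 of 14 called, with 4 higher and 1 lower at an unadjusted p under 0.05 (35.7% of the list), and the smallest p was that of Ndufaf1, which had 1.08, 1.07 and 1.06 in knockout against 0.87, 0.91 and 0.92 in wild type (difference 0.17, SE 0.04, adjusted p = 0.069). Complex IV assembly factors had 0 of 19 called, with 3 higher and 4 lower at that threshold (36.8%) and Cox16 at -0.13 (SE 0.04, adjusted p = 0.11). Among cristae factors Apool, of the complex that shapes cristae junctions, had -0.24 (SE 0.04, adjusted p = 0.051, and 0.033 to 0.23 over 19 alternatives).

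Complex II, whose 4 genes were all tested, had differences from -0.035 to 0.039, the latter in Sdhb, the iron-sulfur subunit (adjusted p = 0.57). Subunits encoded by mitochondrial DNA were represented by 4 of 13 genes, with 0 called and differences from -0.035 in ND4 (adjusted p = 0.64) to 0.013 in COX2. The scanner files place the COX2 probe, and that of ATP6, on chromosome 1 and not on mitochondrial DNA, so their source is not certain. The smallest p in the remaining lists belonged to Lyrm7, for complex III assembly, at 0.11 (adjusted p = 0.22), Atpaf1, for assembly of the ATP synthase head, at 0.096 (adjusted p = 0.28), the ADP/ATP carrier gene Slc25a4 at -0.074 (adjusted p = 0.29) and the coactivator gene Ppargc1b at 0.18 (adjusted p = 0.11).

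Other cell types were checked beside these values. Macrophage markers were above 0 for 6 of 6 genes, with 0 called, a median of 0.20 and a summed level from 2.76 to 3.21 in knockout and from 2.31 to 2.68 in wild type. Sertoli markers were above 0 for 5 of 5 tested genes, with 0 called, a median of 0.086 and a summed level from 69.9 to 72.3 and from 63.3 to 68.8. Fat markers had 1 of 4 tested genes called (Cidea, lower by 0.42), a median of -0.26 and a summed level from 5.99 to 6.06 and from 6.47 to 7.19. The fat markers did not move together: Adipoq was higher by 0.28 (adjusted p = 0.47) with no overlap, and Fabp4 and Plin1 overlapped. Cidea and Adipoq were the brightest of the list, so the sum mostly follows these genes. Erythroid markers had 1 of 3 called (Alas2, higher by 0.53, adjusted p = 0.039), a median of -0.23 and a summed level from 5.05 to 5.73 and from 4.05 to 6.72. Leydig markers were above 0 for 1 of 4 genes, with 0 called, a median of -0.13 and a summed level from 31.1 to 35.2 and from 30.5 to 35.6. For spermatogonia 3 of 5 were above 0, with 0 called, and the summed level ran from 17.4 to 18.1 in knockout and from 19.6 to 21.0 in wild type. The spermatogonia markers below 0 were Stra8 (-0.42) and Uchl1 (-0.19). Summed levels of the genotypes did not overlap for spermatogonia, nor for macrophage, Sertoli and fat markers, and overlapped for the other lists. Among single genes, 31.6% of all tested genes did not overlap. A sum follows its brightest genes, which for spermatogonia were Uchl1 and Stra8, while Gfra1, Kit and Dazl overlapped. The sums therefore do not give the share of a cell type. Spermatocyte and round spermatid markers had 0 called and medians of 0.042 and 0.070. The part of these cell types in the members' values was not tested.

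For 25 members at least 2 probes were tested, and in 15 of them all probes had the same sign. The other 10 had probes of both signs, and in 1 of these, Ndufab1, 1 probe was at -0.13 (unadjusted p = 0.033, adjusted p = 0.18) and another at 0.014, where the probe that stood for the gene was at -0.0022. With each of the 115 tested member probes on its own, 0 were called, 4 were higher and 2 lower at an unadjusted p under 0.05, 73 were above 0 and the median was 0.020. The 5 untested probes included those of Cox4i2 and Cox8b and 1 further probe each of Ndufab1, Ndufs4 and Ndufs5, genes that were tested through another probe.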

How the data were processed

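Spot intensity values of 6 single-colour Agilent arrays were deposited as scanner output from Agilent Feature Extraction, version 10.7.3.1 in the file headers and 10.7 per the submitters' processing notes. The deposited processed signal is an intensity already corrected for background per the file headers. The authors also deposited a table of log2 values, used as an alternative. Its columns each had a median of 7.73 over the probes used, and their sorted values lay within 0.030 of the mean of the columns, as after quantile normalization. Its steps are not given in the sources used here. Flags and other per-spot columns were used as deposited. Control spots and outlier flags (86 to 159 spots per array) were left out. Each array's log2 processed signal was set relative to its own 75th percentile and averaged per probe. Probes entered the test if all unflagged arrays of 1 genotype or more were well above background and each group had at least 2 values, and the brightest probe stood for a gene. Probes were named through accessions (27668 probes), symbols (5589) or synonyms (471) of a GRCm38.p6 RefSeq table, and 7446 kept the file's name. Probe positions are mm9, per the files. No mm9 annotation was used, so exons and UTRs are not stated.

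The comparison of genotypes used lmFit and eBayes of limma 3.58.1 under R 4.3.3, and p-values were adjusted by Benjamini-Hochberg across the 18976 genes. The fit was also run on simulated independent normal noise with set changes, all larger than any member difference and with no slide effect. That run does not show how well differences of the members' size are found. Replicates 1 and 2 of both genotypes shared slide 1 and its scan, and both replicates 3 were on slide 2. The text names the isoform genes, the 3 highest and 3 lowest members per complex, core subunits, called genes, the gene of smallest p per pathway list, Prss37 and Prss55, and any other gene named was chosen after its values were seen unless position is given as the reason. The members and lists were chosen with earlier results of these data known. The number of arrays limits the precision. Alternatives changed the scaling (normexp with offset 50, quantile, median centring, the deposited table), the probe filter and probe rule, the fit (trend, weights, a block for replicate or slide), the arrays used and the threshold (0.1). Slide 1 alone was added after seeing the data.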

Additional observations from a re-analysis of the deposited data

How the results depend on the processing

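The count of members called higher, of 80 tested, was 0. It became 1 for variance trend with robust fitting, 1 for array weights and 1 at an adjusted p under 0.1. It was Atp5g2 each time, and the count was 0 in the other alternatives run. Calls over all 18976 tested genes rose in these settings as well. They went from 230 higher and 237 lower to 691 and 579 with trend and robust fitting, and to 644 and 529 with array weights. At an adjusted p under 0.1, 9.83% of all tested genes passed. The count called lower was 0 in all of them. With an array left out, 0 to 0 members were called in either direction, and the members' median difference ran from 0.018 to 0.035. That median was -0.0016 with quantile normalization, -0.0015 in the deposited table and 0.0090 within slide 2. The cause was not tested. Under other scalings the testis to somatic ratio ran from -0.066 to 0.016 for Cyct over Cycs, from -0.050 to 0.0022 for Cox6b2 over Cox6b1, from -0.048 to -0.028 for Cox7b2 over Cox7b and from -0.21 to -0.14 for Cox8c over Cox8a. The ratio within slide 2 was 0.11 for Cyct over Cycs and 0.057 for Cox7b2 over Cox7b. With an array left out it ran from -0.051 to 0.063 for the cytochrome c pair, from -0.026 to 0.055 for Cox6b2 over Cox6b1, from -0.077 to 0.0034 for Cox7b2 over Cox7b and from -0.20 to -0.036 for Cox8c over Cox8a.

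Of 931 values for 49 named genes under the alternatives, 893 kept their direction where called and their side of the threshold, 31 fell below it, 7 passed it and 0 called values turned direction.

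Whether the replicate numbers pair the mice cannot be told from these values. The deviations of same-numbered mice correlated at -0.028, -0.027 and 0.16 across genes, and those of differently numbered mice at -0.14 to 0.14. The value of 0.16 belongs to both replicates 3, which shared slide 2, so slide and number are not separated there. Replicates 1 and 2 of opposite genotypes, which shared slide 1, correlated at 0.14 and 0.11. With the replicate number as a block 0 members were called in either direction, the members' median was 0.035, and the calls over all genes went from 230 higher and 237 lower to 0 and 2. With the slide as a block they were 30 and 49.

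Counts over all genes moved by over 1.5 times in other settings too. They were 2 higher and 6 lower when dim probes were not filtered, 691 and 579 for variance trend with robust fitting, 644 and 529 for array weights, 125 and 150 when probes of a gene were averaged, and 6 and 21 on slide 1 alone. Without knockout replicate 1, 2 or 3 they were 12 and 37, 0 and 2, and 5 and 9, and without wild-type replicate 1 or 2 they were 1 and 5, and 442 and 337. With 3 mice per genotype, the median half-width of a member's 95% interval, not adjusted for the number of genes, was 0.11 on the log2 scale. The threshold for a call was stricter: Atp5g2 at 0.17 (SE 0.04, limma adjusted p = 0.068) was not called. Differences of that size could therefore be missed for a typical subunit.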
